A study of Homo sapiens with 4 samples.

Results

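The 9 genes described here are DKK1, a secreted antagonist of WNT signalling, and 8 genes that carry, limit or report the signal, namely AXIN2, LEF1, TCF7, TCF7L2, NKD1, RNF43, ZNRF3 and CTNNB1. They were chosen by name, and each matched 1 of the 57014 named rows of the count table. Poly(A)-selected RNA was sequenced from 22Rv1, a human prostate carcinoma cell line that grew from a serially passaged xenograft, in medium with 10% fetal bovine serum. The labels put 2 libraries in a CD276 knockout group, whose library names carry sgCD276, and 2 in a wild-type control group, whose library names carry sgGFP. B7-H3, the product of CD276, is a surface protein related to immune checkpoint ligands. Both groups hold replicates 1 and 3, which the series design calls biological replicates. The sources used here do not give whether the knockout cells were 1 clone or a pool, nor whether each replicate was a culture of its own; the p-values therefore reflect only how far these libraries vary, which may be technical. The series title sets the cell line in work on DNA methylation and B7-H3 as targets in prostate cancer, and the comparison asks how the transcripts of this line differ with CD276 knocked out.

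In the canonical WNT pathway, a WNT ligand joins a Frizzled receptor to the co-receptor LRP5 or LRP6. This stops a destruction complex, built on AXIN and APC with the kinases GSK3 and CK1, from marking beta-catenin for degradation. Beta-catenin, the product of CTNNB1, then enters the nucleus and drives transcription with factors of the TCF/LEF family. DKK1 binds LRP5 and LRP6, together with Kremen proteins, and keeps ligands from using them. Several targets of the pathway feed back on it, among them AXIN2, NKD1, RNF43, ZNRF3 and DKK1 itself. In prostate cancer, DKK1 is known mostly for its effects on bone metastases. The level of CTNNB1 mRNA is not a measure of pathway activity, since the control lies in the stability of the protein.

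The sequence upstream of DKK1 is shown because DKK1 is both the member with the largest difference and a known target of the TCF/LEF factors. The RefSeq tables held upstream windows for 6 of the 9 members, namely DKK1, LEF1, TCF7, TCF7L2, RNF43 and CTNNB1, with 10 windows in all because several have more than 1 start. The 250 bases before the annotated start of DKK1 lie at chr10:52314031-52314280 on the plus strand of GRCh38.p14 and end before the first DKK1 exon of GENCODE 29. The capitals mark the letters CTTTGA or CTTTGT, which are those of the core of TCF/LEF binding sites, or their reverse complements TCAAAG and ACAAAG.
DKK1: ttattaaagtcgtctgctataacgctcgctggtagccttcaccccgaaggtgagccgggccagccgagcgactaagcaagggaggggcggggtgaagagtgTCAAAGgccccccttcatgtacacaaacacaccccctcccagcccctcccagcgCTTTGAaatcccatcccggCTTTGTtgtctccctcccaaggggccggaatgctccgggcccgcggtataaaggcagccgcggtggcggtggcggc
The window held 3 matches. One lay on the opposite strand 149 to 144 bases before the start, and the others lay on the sense strand, 95 to 90 and 76 to 71 bases before it. Of 35116 RefSeq windows of the same length, 22.8% held at least 1 match on either strand and 0.584% held 3 or more. Each of the 2 RNF43 windows held 1 match, 1 of the 3 TCF7L2 windows held 1 and 1 of the 2 TCF7 windows held 2. The LEF1 and CTNNB1 windows held 0, which says only that these letters are not in those windows. A match is a run of letters and not evidence of binding.

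The deposited counts of named rows summed to 24437926 and 25802417 in knockout replicates 1 and 3 and to 23206271 and 20079050 in control replicates 1 and 3. Levels are given as normalized CPM, which are counts per 1000000 after scaling by trimmed mean of M-values (TMM), so that 1 normalized CPM stood for 19.4 to 26.3 counts. Differences are log2 ratios (log2 fold changes) of knockouts to controls ± SE, and a gene is said to have risen, fallen or changed where its Benjamini-Hochberg adjusted p over the 18043 genes tested, from the quasi-likelihood test of edgeR, was under 0.05. CD276 fell, with 23.6 and 26.2 normalized CPM in the knockouts against 47.4 and 54.4 in the controls (log2 fold change -1.03 ± 0.16, edgeR adjusted p = 0.00561), and missed the threshold without control replicate 3 (edgeR adjusted p = 0.0812). Mitochondrial genes took 1.46% and 1.78% of the counts in the knockouts and 5.84% and 6.15% in the controls. The knockout libraries lay farther apart than the controls, with a median absolute difference between replicates of 0.31 against 0.14 on the log2 scale over all genes tested. The 8 prostate luminal markers examined were all tested and summed to 3140 and 3885 normalized CPM in the knockouts and 3934 and 3858 in the controls, of which KRT18, a keratin that shares 16.3% of its exonic bases with KRT8 on the opposite strand, fell (-0.68 ± 0.19, edgeR adjusted p = 0.0370). The 6 stromal markers summed to 34.4 and 47.4 normalized CPM in the knockouts and 60.5 and 54.3 in the controls. COL1A1 held the largest part of these sums in each library and was the only tested stromal marker lower in both knockouts. LUM, COL3A1 and DCN were higher in both knockouts, and COL1A2 overlapped between the groups. COL3A1, DCN and COL1A2 had low counts and were not called. The median log2 fold change of the 5 tested stromal markers was 0.84. PDGFRB had 0 and 3 counts in the knockouts and 4 and 1 in the controls. Of the stromal markers tested, 1 fell (COL1A1, -1.001 ± 0.21, edgeR adjusted p = 0.0139) and 1 rose (LUM, 0.84 ± 0.21, edgeR adjusted p = 0.0244); like that of KRT18, these calls were lost when either control library was left out. The part of these values in the results below was not tested. In bulk RNA, fewer cells of a type and less RNA per cell cannot be told apart.

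Of the 9 members 8 had enough counts to be tested, of which 1 fell, 1 rose and 6 were not called. The share of all tested genes called in either direction was 22.8%, so that 2 of 8 is near that background; 9.87% of all genes rose and 12.9% fell. DKK1 was the member that fell, and CTNNB1 was the one that rose. The groups did not overlap for 5 of the 8 members, 3 of them higher and 2 lower in the knockouts, where 65.9% of all tested genes had groups that did not overlap, 31.8% higher and 34.1% lower. The median log2 fold change was 0.27 over the 8 members and -0.0045 over all genes tested.

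**Figure D1:**
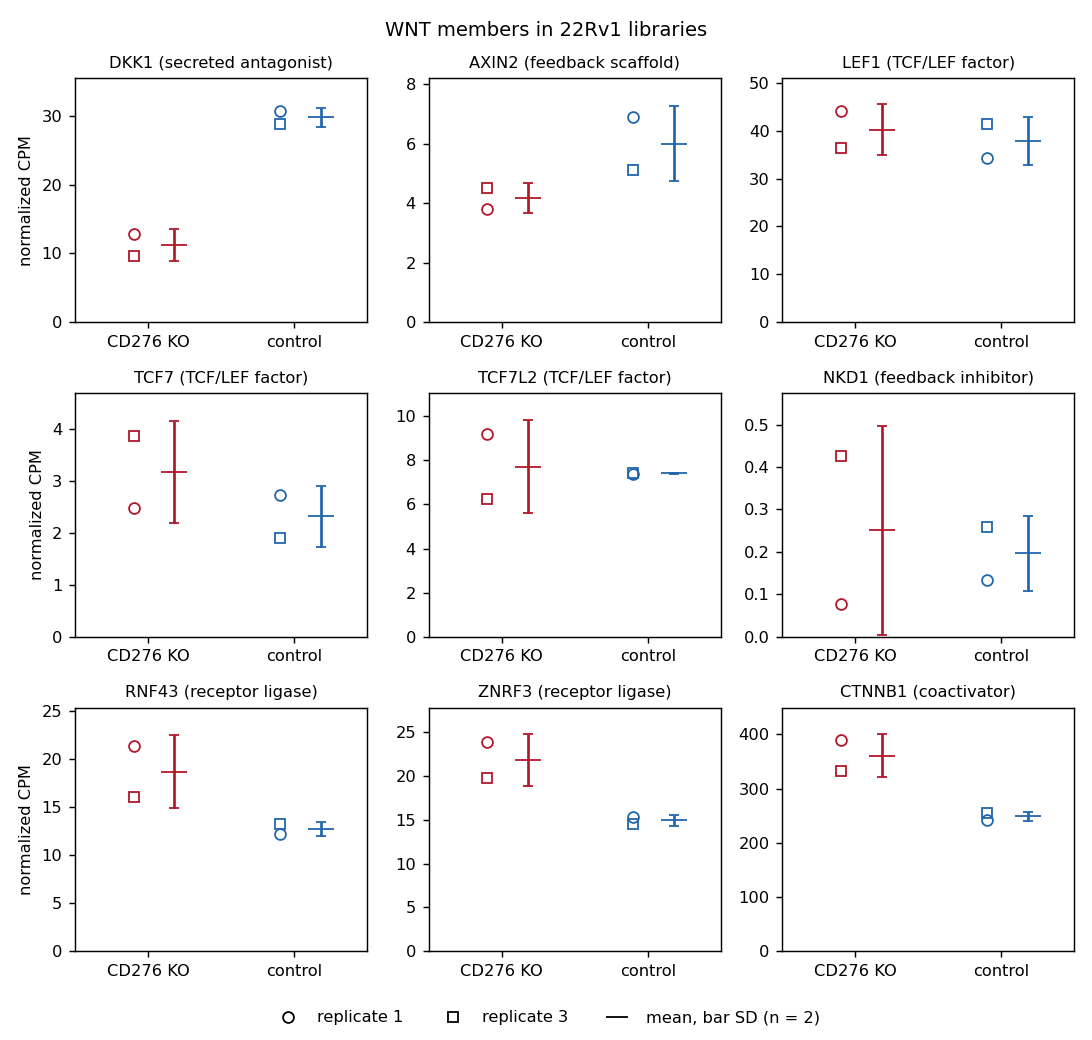
Normalized CPM (y axes, from 0) of the 9 members in the CD276 knockout and control libraries, with a circle for replicate 1, a square for replicate 3, and a dash with a bar for the mean ± SD of the 2 libraries. DKK1 lies at 12.9 and 9.63 in the knockouts and at 30.7 and 28.8 in the controls, and CTNNB1 at 389 and 333 in the knockouts and at 243 and 255 in the controls.

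DKK1, the secreted antagonist, was 2.65-fold lower in the knockout libraries. The gene lies on chromosome 10, 52314296 to 52318042, plus strand (GRCh38). It had 338 and 249 counts in knockout replicates 1 and 3 and 686 and 558 in control replicates 1 and 3. Its level was 12.9 and 9.63 normalized CPM in the knockouts, against 30.7 and 28.8 in the controls. Both knockout values lay far below both control values, and knockout replicate 3 was the lowest of the 4. The means were 11.2 ± 2.30 normalized CPM in the knockouts and 29.8 ± 1.35 in the controls (SD, n = 2 each), and the log2 fold change came to -1.40 ± 0.19 (edgeR adjusted p = 0.00406). Of all tested genes, 7.85% had a larger fold change in either direction. DKK1 fell under each of the 16 alternative settings, with log2 fold changes of -1.62 to -1.14. Among the alternatives that kept all 4 libraries, the largest adjusted p was 0.0081 (edgeR, scaling by library totals alone). The value nearest 0 came without knockout replicate 3 and the farthest without knockout replicate 1, each a fit with 1 knockout library left. DKK1 shares 9.6% of its exonic bases with PRKG1-AS1 on the opposite strand, which had 9 counts in each of the 4 libraries.

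The 3 genes outside the WNT lists whose profile lay nearest to that of DKK1 over the 4 libraries were LRRC37A3, LCN12 and GSDMB. The measure was the Euclidean distance in log2 normalized CPM centred on each gene's mean, and it came to 0.04, 0.05 and 0.06. The 11568 candidate genes had a mean of at least 5 normalized CPM over the 4 libraries. GSDMB, which encodes the pore-forming gasdermin B, was at 11.96 and 8.81 normalized CPM in the knockouts and 27.3 and 27.2 in the controls. LCN12, a lipocalin, was at 5.06 and 3.83 in the knockouts and 12.5 and 11.2 in the controls. LRRC37A3 was at 9.14 and 6.84 in the knockouts and 21.2 and 20.2 in the controls, and it belongs to a family with close copies, so its counts are uncertain. Among the other members AXIN2 was the nearest to DKK1, at a distance of 1.04, and TCF7 the farthest of those tested, at 2.00. At least 291 of the candidate genes lay nearer to DKK1 than AXIN2 did. With 4 libraries in 2 groups, profiles of this kind are set mostly by the difference between the groups.

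CTNNB1, which encodes beta-catenin, rose in the knockout libraries by a smaller factor of 1.45. The gene lies on chromosome 3, 41194741 to 41260096, plus strand, with no exon annotated to any other gene. It had 10212 and 8613 counts in knockout replicates 1 and 3 and 5426 and 4935 in control replicates 1 and 3. Its level was 389 and 333 normalized CPM in the knockouts, against 243 and 255 in the controls. The groups did not overlap, and knockout replicate 1 was the highest. The means were 361 ± 39.6 normalized CPM in the knockouts and 249 ± 8.34 in the controls (SD, n = 2 each), and the log2 fold change came to 0.54 ± 0.15 (edgeR adjusted p = 0.0374). Over all tested genes 39.0% had a larger fold change in either direction. The call was lost without control replicate 1 (log2 fold change 0.50, edgeR adjusted p = 0.446), without control replicate 3 (0.57, edgeR adjusted p = 0.331) and when mitochondrial and non-coding genes were left out of the fit (0.48, edgeR adjusted p = 0.0528).

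RNF43 and ZNRF3, the membrane ubiquitin ligases that remove Frizzled receptors from the cell surface, had fold changes much like that of CTNNB1 but narrowly missed the threshold. ZNRF3 lies on chromosome 22, 28883592 to 29057487, plus strand, and shares no annotated exon. It had 627 and 511 counts in the knockouts and 343 and 281 in the controls, or 23.9 and 19.8 normalized CPM in the knockouts and 15.4 and 14.5 in the controls. Both knockout libraries lay above both controls, with replicate 1 the higher within each group. Its log2 fold change was 0.55 ± 0.18 (edgeR adjusted p = 0.0564). It passed under 7 of the 16 alternatives, for example with offsets for GC content and exonic length (0.59, edgeR adjusted p = 0.0315). Over all 16 its log2 fold change ran from 0.41 to 0.74.

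RNF43 lies on chromosome 17, 58352500 to 58417595, minus strand. It had 562 and 414 counts in the knockouts and 273 and 257 in the controls, or 21.4 and 16.004 normalized CPM in the knockouts and 12.2 and 13.3 in the controls. The groups did not overlap, although the knockouts differed from each other by 0.42 on the log2 scale. Its log2 fold change was 0.55 ± 0.20 (edgeR adjusted p = 0.0762), and it passed under 2 of the 16 alternatives. Of the RNF43 exonic bases, 59.5% also belong to the same-strand genes AC004687.2 and SUPT4H1, and 20.3% to TSPOAP1-AS1 on the opposite strand, so its counts are uncertain. Values of AC004687.2 are not given here. SUPT4H1, an elongation factor subunit, was at 58.2 and 66.5 normalized CPM in the knockouts and 51.0 and 48.2 in the controls and was not called (log2 fold change 0.33 ± 0.14, edgeR adjusted p = 0.121). The level of RNF43 per length, relative to that of ZNRF3, was 0.832 and 0.752 in the knockouts and 0.739 and 0.849 in the controls, so the ratio of the ligases overlapped between the groups.

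AXIN2, a scaffold of the destruction complex and the most widely used transcriptional readout of the pathway, was not called. It lies on chromosome 17, 65528563 to 65561647, minus strand. It had 100 and 117 counts in the knockouts and 154 and 99 in the controls. Its level was 3.81 and 4.52 normalized CPM in the knockouts, against 6.90 and 5.11 in the controls. The knockouts lay below the controls, but the gap from 4.52 in knockout replicate 3 to 5.11 in control replicate 3 was smaller than the gap between the controls. The log2 fold change was -0.53 ± 0.27 (edgeR adjusted p = 0.180). AXIN2 passed under 1 of the 16 alternatives, without knockout replicate 3 (-0.59), where 1 knockout library is too few to show a spread. AXIN2 shares 25.2% of its exonic bases with AC004805.1 on the same strand, which had 0 counts in the 4 libraries.

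NKD1, which binds Dishevelled and damps the signal, had few counts and did not pass the filter on low counts. It lies on chromosome 16, 50548330 to 50649249, plus strand. It had 2 and 11 counts in the knockouts and 3 and 5 in the controls, with the highest and the lowest count both in the knockouts. Since 3 counts stood for 0.114 to 0.155 normalized CPM, only a large difference could have shown at this depth. It was tested with no filter and when either control library was left out, and it was not called in these fits.

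The TCF/LEF factors, the DNA-binding partners of beta-catenin, were not called with all 4 libraries. LEF1 lies on chromosome 4, 108047545 to 108168956, minus strand. It was at 44.1 and 36.4 normalized CPM in the knockouts and 34.3 and 41.3 in the controls, with the groups overlapping (log2 fold change 0.09 ± 0.17, edgeR adjusted p = 0.731). TCF7L2 lies on chromosome 10, 112950250 to 113167678, plus strand. It was at 9.22 and 6.22 normalized CPM in the knockouts and 7.39 and 7.43 in the controls, so that the controls lay between the knockouts (0.06 ± 0.25, edgeR adjusted p = 0.886). The sign of both differences changed with the setting. LEF1 was called under 1 of the 16 alternatives, without knockout replicate 3 (0.29), where 1 knockout library is too few to show a spread. TCF7 lies on chromosome 5, 134114711 to 134151865, plus strand. It had 65 and 100 counts in the knockouts and 61 and 37 in the controls, or 2.48 and 3.87 normalized CPM in the knockouts and 2.73 and 1.91 in the controls, with overlapping groups (0.44 ± 0.36, edgeR adjusted p = 0.394). It was called under 1 of the 16 alternatives, without knockout replicate 1 (0.74), which again left 1 knockout library. TCF7 shares 2.1% of its exonic bases with SKP1 on the opposite strand, a far more abundant gene that rose (0.55 ± 0.14, edgeR adjusted p = 0.0271), and the sources used here do not give the strand setting of the counting. Counts per gene do not tell the long isoforms of LEF1 and TCF7 from the short ones, which lack the beta-catenin binding domain and act as repressors.

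Within the TCF/LEF family, LEF1 was the most abundant transcript per length in all 4 libraries. Levels per length were computed as normalized CPM per kilobase of annotated exon, and the fourth family member TCF7L1 was included. The family summed to 11.3 and 10.2 in the knockouts and 10.1 and 11.0 in the controls. The share of LEF1 was 72.8% and 66.3% in the knockouts and 63.3% and 70.4% in the controls. TCF7L1 made up 12.9% and 20.9% in the knockouts and 23.2% and 17.8% in the controls, and TCF7 3.75% or less in each library. The sums and these shares overlapped between the groups. The share of TCF7 depends on the length used. Per kilobase of its longest coding transcript, TCF7 was at 0.743 and 1.16 in the knockouts and 0.820 and 0.574 in the controls. With all annotated exons it was at 0.246 and 0.384 in the knockouts and 0.271 and 0.190 in the controls. The length mattered less for LEF1, at 12.7 and 10.5 against 8.22 and 6.79 in the knockouts.

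**Figure D2:**
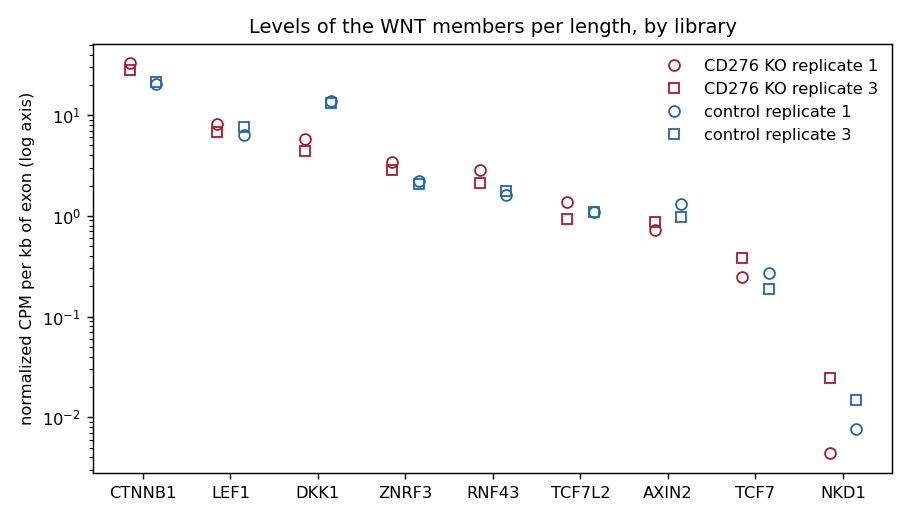
Levels of the 9 members per length (normalized CPM per kilobase of annotated exon, log axis) in each library, ordered by the knockout mean, with knockout libraries in red on the left and controls in blue on the right of each pair. CTNNB1 is the highest in every library and NKD1 the lowest, and DKK1 lies below LEF1 in the knockouts and above it in the controls.

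Per length, CTNNB1 was the highest of the 9 members in each library, at 32.6 and 27.9 normalized CPM per kilobase in the knockouts and 20.4 and 21.4 in the controls. The order below it differed between the groups in the place of DKK1. In the knockouts LEF1 came next (8.22 and 6.79) and then DKK1 (5.83 and 4.36), whereas in the controls DKK1 (13.9 and 13.1) stood above LEF1 (6.40 and 7.70), and in neither group did these values overlap. ZNRF3 and RNF43 followed, at 3.43 and 2.83 for ZNRF3 and 2.85 and 2.13 for RNF43 in the knockouts, where they overlapped, and at 2.20 and 2.08 for ZNRF3 and 1.63 and 1.77 for RNF43 in the controls. AXIN2 and TCF7L2 came after them and overlapped in the controls (1.32 and 0.978 for AXIN2, 1.097 and 1.104 for TCF7L2) but not in the knockouts (0.729 and 0.865 for AXIN2, 1.37 and 0.924 for TCF7L2). TCF7 and NKD1 were the lowest. With the longest coding transcript in place of all annotated exons, a choice made after seeing the data, RNF43 had the higher mean of the ligases and TCF7L2 stood above AXIN2 in both groups, and the other places were the same.

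**Figure D3:**
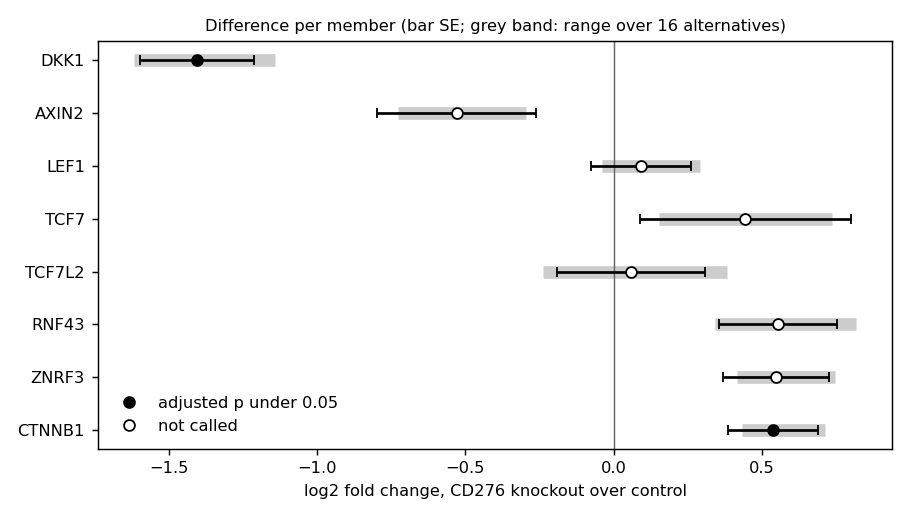
Log2 fold change of knockout over control (x axis) for the 8 tested members, with bars for the SE, filled points for an adjusted p under 0.05 and a grey band for the range over 16 alternative settings. The band of DKK1 runs from -1.62 to -1.14, that of CTNNB1 from 0.43 to 0.71, and the bands of LEF1 and TCF7L2 include 0.

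Beyond the members, 102 other genes of the pathway were listed in 10 role lists, from ligands to targets. Of these 81 were tested, 10 rose, 3 fell and 68 were not called, which is 16.05% called where all tested genes gave 22.8%. Their median log2 fold change was 0.20, against -0.0045 over all genes tested. Without control replicate 1 CD44 alone of the 13 kept its call, and without control replicate 3 KREMEN1, CSNK1A1, BCL9L and CD44 did.

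**Figure D4:**
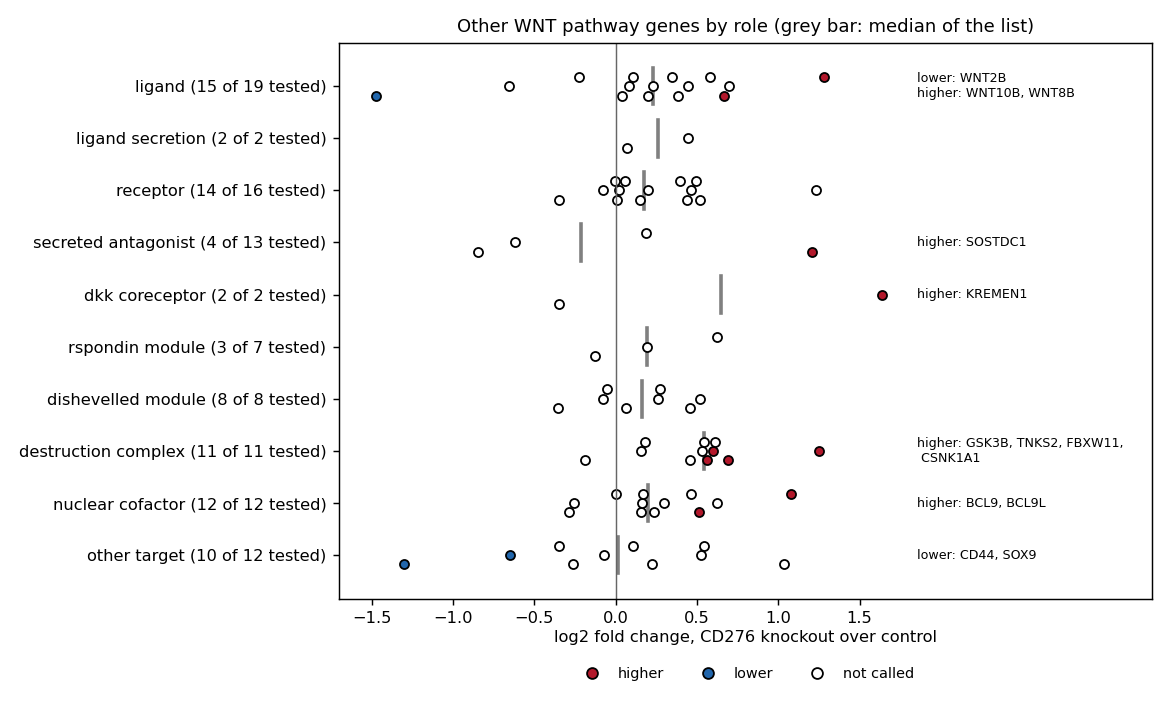
Log2 fold change of knockout over control (x axis) for the 81 tested genes of the 10 role lists, 1 point a gene, red where it rose, blue where it fell and open where it was not called, with a grey bar at the median of each list. The destruction complex has the most genes that rose (4 of 11), and the receptors have 0 called of 14. Of all tested genes 9.87% rose and 12.9% fell.

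Among the partners of DKK1, KREMEN1 rose. KREMEN1 encodes a transmembrane receptor that binds DKK1 and LRP6 together. It had 288 and 364 counts in the knockouts and 83 and 84 in the controls, or 11.0 and 14.1 normalized CPM in the knockouts against 3.72 and 4.34 in the controls. Both knockouts lay well above both controls, and the log2 fold change was 1.64 ± 0.24 (edgeR adjusted p = 0.00484; 0.0618 without control replicate 1). Its paralogue KREMEN2 was more abundant and was not called, at 53.1 and 75.5 normalized CPM in the knockouts and 74.4 and 89.0 in the controls (-0.35 ± 0.19, edgeR adjusted p = 0.211). The co-receptors themselves were not called (edgeR adjusted p = 0.979 for LRP5 and 0.424 for LRP6), with LRP5 at 83.0 and 79.8 normalized CPM in the knockouts and 79.2 and 84.3 in the controls, and LRP6 at 25.3 and 21.3 in the knockouts and 19.5 and 21.1 in the controls. These 2 were chosen after their values were seen, because DKK1 binds them.

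The other secreted antagonists were mostly at low counts in this line. Of the 13 listed 4 passed the filter, and DKK2, DKK3 and DKK4 had 5 counts or fewer in each library. SOSTDC1, which blocks LRP6 and BMP ligands, rose, with 3.31 and 3.13 normalized CPM in the knockouts and 1.34 and 1.45 in the controls (log2 fold change 1.21 ± 0.33, edgeR adjusted p = 0.0310). WIF1, which binds WNT ligands directly, was at 2.59 and 1.70 normalized CPM in the knockouts and 3.99 and 2.58 in the controls and was not called (edgeR adjusted p = 0.245). FRZB, a secreted decoy related to Frizzled, was at 0.724 and 0.541 in the knockouts and 0.896 and 1.39 in the controls and was not called either (edgeR adjusted p = 0.240). DKK1 thus was the most abundant of the listed secreted antagonists in each library, by counts as well as per length.

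Of 19 ligand genes 15 were tested, of which 2 rose and 1 fell. That is 20% called, where all tested genes gave 22.8%. WNT10B was the most abundant ligand gene by counts, and it rose. It was at 20.8 and 18.8 normalized CPM in the knockouts and 12.2 and 12.8 in the controls (0.67 ± 0.17, edgeR adjusted p = 0.0272). WNT8B rose at a low level, with 86 and 67 counts in the knockouts and 25 in each control (1.28 ± 0.35, edgeR adjusted p = 0.0336). WNT2B fell, with 28 and 21 counts in the knockouts and 67 and 43 in the controls (-1.47 ± 0.39, edgeR adjusted p = 0.0285), and it shares 21.2% of its exonic bases with ST7L on the opposite strand. Neither WLS, which carries ligands to the surface, nor PORCN, which acylates them, was called (edgeR adjusted p = 0.179 and 0.902), at means of 13.1 ± 3.34 and 5.81 ± 2.61 normalized CPM in the knockouts and 9.59 ± 0.12 and 5.51 ± 1.58 in the controls.

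None of the 14 tested receptor genes was called, where 22.8% of all tested genes were. Before adjustment edgeR gave 4 higher and 0 lower (p under 0.05), where 17.9% of all tested genes were higher and 20.9% lower by that rule. FZD7 had the smallest p, with 66 and 118 counts in the knockouts and 26 and 36 in the controls (1.23 ± 0.41, edgeR adjusted p = 0.0613). FZD6 (0.47 ± 0.17, edgeR adjusted p = 0.0799) and FZD5 (0.49 ± 0.18, edgeR adjusted p = 0.0810) came next, and in all 3 the knockouts lay above the controls. Of the R-spondins, which spare Frizzled by drawing off RNF43 and ZNRF3, and their LGR receptors, 3 of 7 were tested and 0 called. LGR4 was at 6.40 and 6.26 normalized CPM in the knockouts and 3.67 and 4.54 in the controls (0.63 ± 0.25, edgeR adjusted p = 0.0994), RSPO4 at 5.90 and 6.61 in the knockouts and 5.19 and 5.78 in the controls, and LGR5 at 2.82 and 1.51 in the knockouts and 2.55 and 2.17 in the controls. Of the 8 genes around Dishevelled 0 were called, and for both of these lists the share over all tested genes was the same 22.8%. At an unadjusted p under 0.05 edgeR gave 1 R-spondin or LGR gene higher and 0 lower, and 1 Dishevelled gene higher and 1 lower, beside the same 17.9% and 20.9% of all genes. FRAT2, which draws GSK3 off AXIN, was at 16.1 and 17.7 normalized CPM in the knockouts and 12.4 and 11.2 in the controls (edgeR adjusted p = 0.0688), DVL1 at 219 and 231 in the knockouts and 271 and 303 in the controls (edgeR adjusted p = 0.108), and DVL2 at 144 and 148 in the knockouts and 120.2 and 122 in the controls (edgeR adjusted p = 0.164). DESeq2 and limma voom called 0 genes of the receptor, R-spondin, Dishevelled and ligand secretion lists. Of the genes named from these lists, other alternatives called FZD7 and FRAT2 in 5 of 16 each, FZD6 in 3, FZD5, LGR4, DVL1 and DVL2 in 2 each, WLS in 1, and PORCN and RSPO4 in 0; LGR5, which the stricter filter left out, was called in 0 of the others.

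Of the 11 genes of the destruction complex and its regulators 4 rose and 0 fell, where 9.87% of all tested genes rose and 12.9% fell. The median log2 fold change of the list was 0.54, against -0.0045 over all genes tested. CSNK1A1, the priming kinase CK1 alpha, was at 153 and 101 normalized CPM in the knockouts and 51.4 and 55.6 in the controls (1.25 ± 0.20, edgeR adjusted p = 0.00635). The knockouts lay well apart from each other, yet both were above the controls. For CSNK1A1, 37.4% of the exonic bases also belong to a same-strand gene, so its counts are uncertain. FBXW11, an F-box subunit of the ligase that marks phosphorylated beta-catenin, was at 62.9 and 46.4 in the knockouts and 32.4 and 35.3 in the controls (0.69 ± 0.18, edgeR adjusted p = 0.0267). GSK3B, the kinase that phosphorylates beta-catenin after CK1, was at 66.1 and 55.7 in the knockouts and 39.4 and 43.3 in the controls (0.56 ± 0.15, edgeR adjusted p = 0.0318). The tankyrase TNKS2, which marks AXIN for degradation and is named after its value was seen, was at 44.4 and 32.9 in the knockouts and 25.0 and 26.1 in the controls (0.60 ± 0.18, edgeR adjusted p = 0.0460), and it lost its call under 8 of the 16 alternatives.

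Of 12 nuclear cofactors 2 rose and 0 fell, which is 16.7% called where all tested genes gave 22.8%. The 2 that rose encode the adaptors that join beta-catenin to Pygopus. BCL9L was at 159 and 103 normalized CPM in the knockouts and 52.9 and 71.3 in the controls (1.08 ± 0.23, edgeR adjusted p = 0.0139), and 38.8% of its exonic sequence overlaps opposite-strand genes. BCL9 was at 51.9 and 51.8 in the knockouts and 33.9 and 38.7 in the controls (0.51 ± 0.15, edgeR adjusted p = 0.0372), and its call was lost when mitochondrial and non-coding genes were left out. HDAC1, a deacetylase found with TLE corepressors, was at 507 and 458 in the knockouts and 326 and 373 in the controls and was not called (0.47 ± 0.16, edgeR adjusted p = 0.0663). DESeq2 called it as well, giving 3 cofactors higher and 0 lower.

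**Figure D5:**
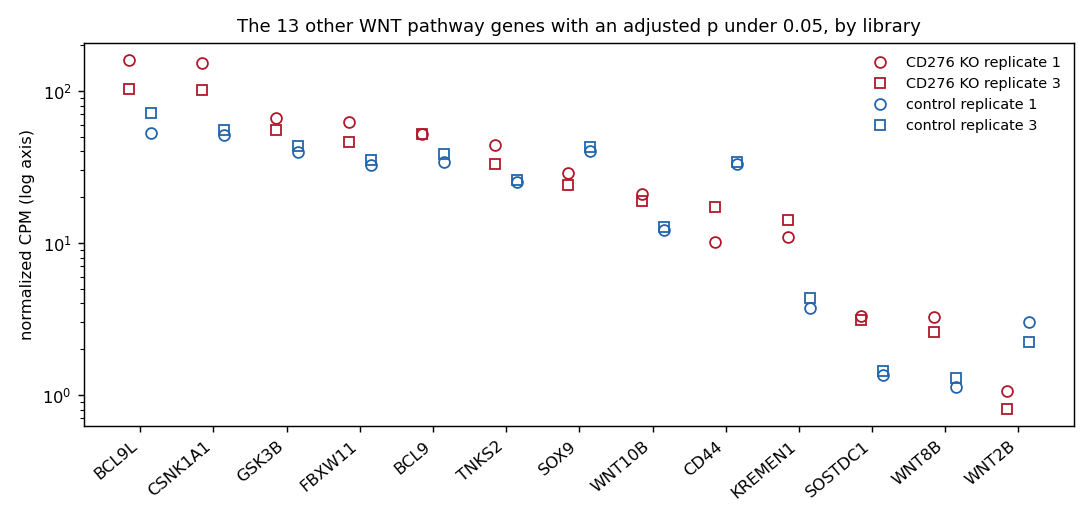
Normalized CPM (log axis) in each library of the 13 other pathway genes with an adjusted p under 0.05, ordered by the knockout mean, with knockouts in red on the left and controls in blue on the right of each pair. SOX9, CD44 and WNT2B are lower in both knockouts and the other 10 are higher in both.

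Of the other genes described as WNT targets 10 of 12 were tested, of which 2 fell and 0 rose. That is 20% called, where all tested genes gave 22.8%. Before adjustment 1 was higher (edgeR p under 0.05, beside 17.9% of all genes). CD44, the hyaluronan receptor, was at 10.2 and 17.2 normalized CPM in the knockouts and 33.3 and 34.0 in the controls (-1.30 ± 0.24, edgeR adjusted p = 0.00926), and it fell under all 16 alternatives. SOX9, a transcription factor of progenitor cells, was at 28.8 and 24.0 in the knockouts and 40.1 and 42.6 in the controls (-0.65 ± 0.16, edgeR adjusted p = 0.0231), and it missed the threshold with scaling by library totals alone. CCND1, the cyclin D1 gene, was the most abundant, at 2593 and 1985 in the knockouts and 1502 and 1643 in the controls, and was not called (0.54 ± 0.21, edgeR adjusted p = 0.0950). It shares 10.3% of its exonic bases with LTO1 on the opposite strand. DESeq2 called 1 of these targets higher, CCND1, besides the 2 lower. These genes answer to other pathways as well.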

How the data were processed

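The data are poly(A)-selected, paired-end RNA-seq counts of 4 libraries. The authors deposited raw counts per gene name, made with Trimmomatic 0.36, STAR 2.5.2b and featureCounts of Subread 1.5.2 on GRCh38, per the submitters' processing notes. The annotation release, the strand setting and the handling of multi-mapping reads are not named in the sources used here, so genes that share exons may lose or gain reads. The 486 rows without a name (0.0191% to 0.0290% of a library's counts) stayed out of library sizes and tests. Genes passing filterByExpr were tested with edgeR 4.0.16 in R 4.3.3 (TMM, glmQLFit with robust=TRUE, glmQLFTest, no term beside the group, leaving 2 residual degrees of freedom), with Benjamini-Hochberg adjustment over all genes tested. The SE is the log2 fold change divided by the square root of F. Fits were tested on simulated counts. Exons, positions and GC content came from GENCODE 29, and upstream sequences from RefSeq (GRCh38.p14).

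The members and lists were chosen with earlier results of these data known. The rule for named genes was all members, CD276, up to 3 genes a list by smallest p, and the 3 genes nearest to DKK1. The 16 alternatives were RLE, upper quartile and library-total scaling, no filter, a stricter filter of 50 counts throughout 1 group, limma voom 3.58.1, DESeq2 1.42.0, robust=FALSE, a replicate block, GC and length offsets, both together, nuclear protein-coding genes, and leaving out each library. The SE and SD take in the variation between these libraries, and the floors cover counting error only.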

Additional observations from a re-analysis of the deposited data

How the results depend on the processing

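DKK1 and CD44 kept their direction and call under the 16 alternatives. The count of changed members was 4 with no filter on low counts and 1 in the fit to nuclear protein-coding genes, against 2, and ran from 1 to 6 when each library was left out. The count of changed other pathway genes was 21 with no filter, against 13, and ran from 1 to 40 when each library was left out; the count over all genes, 4111, then ran from 312 to 9198. A group with 1 library left is assumed to vary like the other, and 1 sample is too few to show its spread. The main fit tested 8 members and 81 other pathway genes and called 4111 of 18043 genes. With no filter, 9 members and 97 other pathway genes were tested, and 5353 of 32400 genes were called. The fit to nuclear protein-coding genes tested 8 members and called 3119 of 13745 genes. Scaling by library totals alone moved the median log2 difference over all genes to 0.10 and gave 2340 higher and 1781 lower genes, against 1780 and 2331; DKK1 was then at -1.29 and CTNNB1 at 0.65.

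Signs turned for genes that were not called. LEF1 was at -0.0396 with GC and length offsets and -0.0379 with the replicate block and these offsets, and TCF7L2 at -0.0572 and -0.0715 in the same fits. With each library left out, LEF1 ran from -0.0400 to 0.29, TCF7L2 from -0.24 to 0.38, PORCN from -0.42 to 0.48 and LGR5 from -0.64 to 0.32. The cause was not tested.

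With the replicate number as a block, 3 members, 15 other pathway genes and 4843 genes were called; the third member was ZNRF3 (0.54, edgeR adjusted p = 0.0493). Deviations of same-numbered libraries from their group means had a correlation of -0.02 across genes. With 2 libraries a group, this value cannot tell whether same-numbered libraries were handled together, and the sources used here do not say. NKD1 and 9 of the 13 other secreted antagonists did not pass the filter on low counts; with no filter, all 9 members and 97 of the 102 other pathway genes were tested.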
